A study of Mus musculus with 20 samples.

Results

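The Iroquois homeobox genes Irx1, Irx2, Irx3, Irx4, Irx5 and Irx6 were examined in sorted gut mesenchyme with and without Eed. All 6 of the 6 symbols looked for were present among the 43280 gene symbols of the embryonic count tables and in the adult tables, and each gene start was also looked up in 4 lists of open-chromatin peaks. The embryonic cells came from stomach and intestine at E13.5, of mice labelled C57BL/6 whose Eed and reporter alleles are described in the study as of mixed background. Controls, labelled WT, were Bapx1-cre;Rosa26mTmG, and mutants, labelled Eed KO, were Eedfl/fl;Bapx1-cre;Rosa26mTmG, so both genotypes carried the Cre and the reporter. In both, GFP+ cells were sorted, which limits the sample to cells with a history of Bapx1-driven Cre. The adult cells were GFP+ cells of the small intestine from mice of about 10 weeks carrying the tamoxifen-dependent Pdgfrb Cre-ERT2 and Rosa26mTmG, with or without Eed fl/fl. Adult mice were given tamoxifen on 5 days and dissected 2 days after the last dose, a schedule not given for the sorted mice in particular, and their strain is not given in the labels. Each group had 2 RNA libraries. ATAC-seq, which reads open chromatin by transposase insertion, was done on the 4 embryonic groups with 2 samples each, pooled by the authors before peak calling.

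Iroquois proteins are transcription factors of the TALE homeodomain class. They pattern the neural tube, heart, limb, lung and kidney, and in mammals their genes lie in 2 clusters of 3 on separate chromosomes. In the files' build, GRCm38/mm10, the first cluster held Irx1 (chr13:71957921-71963723, minus strand), Irx2 (chr13:72628820-72634198, plus strand) and Irx4 (chr13:73260479-73269608, plus strand). The second held Irx3 (chr8:91798525-91801916, minus strand), Irx5 (chr8:92357796-92361456, plus strand) and Irx6 (chr8:92674288-92680956, plus strand). Neighbouring starts were 665.1 and 631.7 kb apart in the first cluster and 555.9 and 316.5 kb apart in the second. EED is the subunit of Polycomb repressive complex 2 (PRC2) that binds trimethylated H3K27 and is needed for that mark, and Iroquois genes are known carriers of it in cells that keep them silent.

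The reference promoter table matched Irx2, Irx3 and Irx4. The stretches just upstream of the annotated starts of Irx2 and Irx4 are shown because an open-chromatin peak reached over all or part of each of them in every list described below, whether or not the gene had reads. They come from RefSeq in GRCm38.p6, plus strand, 5′ to 3′, with CG dinucleotides in capitals.
Irx2, chr13:72628570-72628819: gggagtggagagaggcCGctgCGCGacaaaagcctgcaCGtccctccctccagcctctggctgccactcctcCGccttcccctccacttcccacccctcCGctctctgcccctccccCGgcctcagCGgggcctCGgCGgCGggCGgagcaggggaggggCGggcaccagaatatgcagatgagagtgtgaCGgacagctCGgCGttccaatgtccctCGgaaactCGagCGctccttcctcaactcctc
Irx4, chr13:73260247-73260478: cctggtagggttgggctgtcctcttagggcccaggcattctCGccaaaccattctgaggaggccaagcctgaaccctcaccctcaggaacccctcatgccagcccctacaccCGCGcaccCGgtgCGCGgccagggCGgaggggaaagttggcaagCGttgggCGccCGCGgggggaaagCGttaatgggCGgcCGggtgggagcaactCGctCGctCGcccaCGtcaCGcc
Each of these stretches held 19 CG dinucleotides, in 250 and 232 bases respectively. Over 300-base windows reaching 50 bases past the RefSeq start, Irx2 had 25, Irx3 14 and Irx4 31, against a median of 7 in 32851 promoters of that length. GC content in the windows was 69% for Irx2, 56% for Irx3 and 70.7% for Irx4, and the median promoter had 52.7%. The palindrome ACANNTGT, an Iroquois binding motif, was in none of the 3 windows and in 7.38% of all promoters. TATAAA on either strand was likewise in none of the 3 and in 13.6% of all.

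The embryonic libraries held 30236159 to 39606157 counts and the adult ones 11404712 to 15903642, so that a count of 0 allowed up to 0.0757 to 0.0992 CPM (counts per 1000000 counts of the library) at E13.5 and 0.189 to 0.263 CPM in the adult. The targeted gene checked the embryonic labels. Eed had 1382 and 1627 counts in control stomach, 427 and 270 in Eed KO stomach, 1356 and 1193 in control intestine, and 407 and 301 in Eed KO intestine. All mesenchyme markers looked up were detected at both ages. Among markers of other cell types at E13.5, the endothelial ones summed to 16.4 to 22.2 CPM in the 4 control libraries and to 31.2 to 57.2 CPM in the 4 Eed KO libraries, with 5 of 8 called higher in Eed KO stomach and 4 of 8 in Eed KO intestine. Of the epithelial, enteric neural crest, mesothelial and erythroid markers 0 were called in either organ, although the median log2 fold change of the epithelial ones was 0.73 in stomach and 1.48 in intestine. In Eed KO stomach the muscle factor Myod1 was called higher (log2 fold change 2.76, edgeR adjusted p = 0.00799) and the leukocyte marker Lyz2 lower (-1.08, edgeR adjusted p = 0.0230). The other tested markers of these lists leaned the opposite way and were not called. Their log2 fold changes were -1.20 for Myf5 and -0.59 for Actc1 of muscle, and 0.98 for Cd68 and 2.74 for Csf1r of leukocytes. The part of these markers in the Iroquois values was not tested. In such sorted bulk samples, more cells with a transcript and more transcript per cell cannot be told apart.

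In control mesenchyme the family was low, with Irx4 and Irx6 at 0 to 2 counts in a library. The highest control value was that of Irx3 in control stomach replicate 1, 41 counts or 1.20 CPM. Values in TPM, transcripts per 1000000, a unit like CPM that also corrects for gene length, summed over the 6 genes to 2.44 and 0.881 in the control stomach libraries and to 0.609 and 0.457 in control intestine. In Eed KO the sums were 8.33 and 9.95 TPM in stomach and 4.30 and 7.08 TPM in intestine. The Eed KO libraries therefore lay above the controls of the same organ without overlap. This held for each of the 6 genes in each organ, in CPM. Across all 25364 genes with an embryonic count, both Eed KO libraries exceeded both controls for 24.8% in stomach, 19.8% in intestine and 11.4% in both organs.

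**Figure D1:**
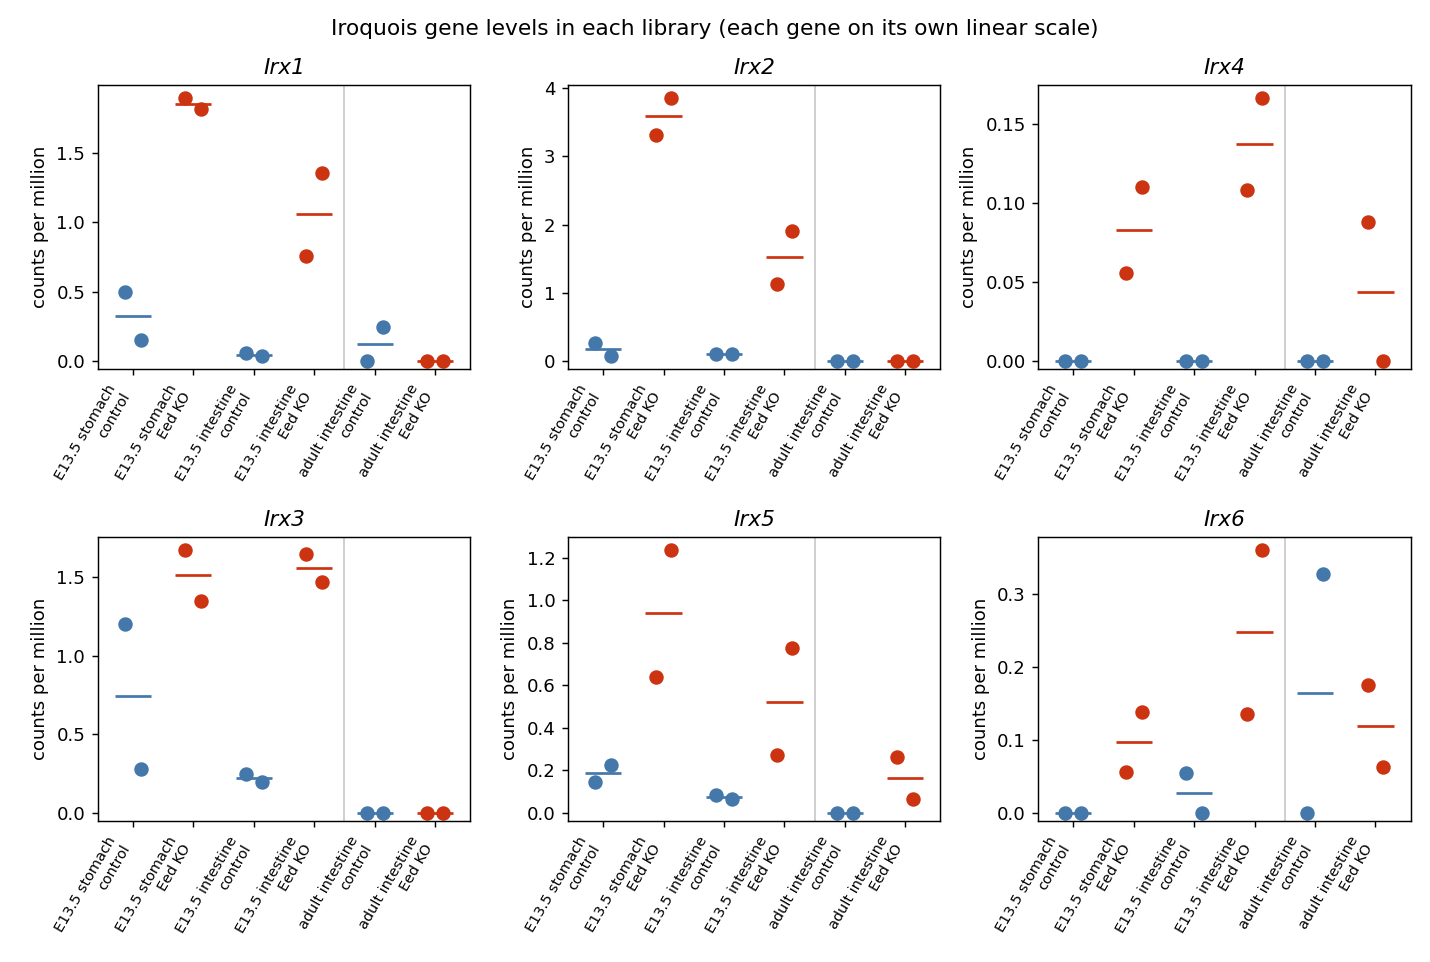
Levels in CPM (vertical axis, linear, its own scale for each gene) of the 6 Iroquois genes in the 4 embryonic and 2 adult groups. Points are single libraries and short lines the mean of 2. At E13.5 both red Eed KO points sit above both blue control points of the same organ in every panel, while adult libraries sit at 0 to 4 counts.

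Irx1, Irx2, Irx3 and Irx5 had enough reads for the fit across 16218 embryonic genes, and Irx4 and Irx6 did not. Irx2 and Irx5 reached 10 counts in Eed KO libraries only, and Irx1 and Irx3 did so in 1 and 2 control libraries besides, so the share of tested members that changed is a description. A gene was called when its Benjamini-Hochberg adjusted p from edgeR's quasi-likelihood test was under 0.05 and its log2 fold change beyond 1.

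Irx2 had the strongest signal of the family in Eed KO stomach. It is expressed with Irx1 in embryonic lung, limb and nervous tissue. Control stomach held 9 and 3 counts and Eed KO stomach 119 and 140. Control intestine held 4 and 3 counts and Eed KO intestine 42 and 69. Control libraries of both organs were thus alike in having at most 9 counts, and stomach Eed KO libraries were above intestine Eed KO libraries. In normalised values the stomach means were 0.169 CPM without and 3.52 CPM with Eed loss, a log2 fold change of 4.39 (SE 0.51, edgeR adjusted p = 0.00329, n = 2 per group). In intestine they were 0.107 and 1.54 CPM, with a log2 fold change of 3.80 (SE 0.57, edgeR adjusted p = 0.0174). Irx2 was called higher in both organs.

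Irx1, a neighbour of Irx2 that takes part in kidney nephron segmentation and lung development, was also called higher in both organs. It had 17 and 6 counts in control stomach against 68 and 66 in Eed KO stomach. In control intestine it had 2 and 1 counts, and in Eed KO intestine 28 and 49. The control stomach libraries differed from one another by more than the Eed KO stomach libraries did. The log2 fold change was 2.51 in stomach (SE 0.53, edgeR adjusted p = 0.0296) and 4.44 in intestine (SE 0.75, edgeR adjusted p = 0.0261). The intestinal ratio rests on 3 control counts in all. Taken over pooled counts it was 23.4, with an exact 95% interval of 7.71 to 116 that covers counting error only.

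Irx4, the third gene of that cluster and a factor of the heart ventricle, had no count in any of the 4 control libraries. Eed KO stomach held 2 and 4 counts and Eed KO intestine 4 and 6. Every Eed KO library therefore had some reads, all few. Against a floor of 3 counts over the pooled control group, Irx4 was at least 2.04-fold higher in Eed KO stomach and at least 3.04-fold higher in Eed KO intestine, with no test across genes. With the counting error of the Eed KO reads included, the exact 95% lower limits of the ratios were 1.20 and 2.04.

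Irx3, which acts in ventral neural tube patterning, limb and heart conduction, had the highest control values of the family. Control stomach held 41 and 11 counts and control intestine 9 and 6, while Eed KO stomach held 60 and 49 and Eed KO intestine 61 and 53. The 4 Eed KO libraries were close to each other, at 1.35 to 1.67 CPM, and the control stomach libraries were far apart, at 1.20 and 0.278 CPM. The log2 fold change was 1.03 in stomach (SE 0.55, edgeR adjusted p = 0.318) and 2.75 in intestine (SE 0.64, edgeR adjusted p = 0.0709), and neither was called. The stomach value depended on 1 library, since without control stomach replicate 1 it was 2.38 with an edgeR adjusted p of 0.0424. In such a fit the lone library left in its group is assumed to vary like those of the other groups. Irx3os, a non-coding gene on the opposite strand whose exons overlap an Irx3 exon, had 2 and 2 counts in control stomach, 5 and 9 in Eed KO stomach, 1 and 0 in control intestine and 9 and 5 in Eed KO intestine. Whether the counting used strand is not given in the sources used here, so reads of the shared stretch may stand under either gene.

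Irx5, partner of Irx3 in heart and limb and a factor of retinal bipolar cells, had 5 and 9 counts in control stomach and 23 and 45 in Eed KO stomach. In control intestine it had 3 and 2 counts and in Eed KO intestine 10 and 28. In each organ the Eed KO libraries differed more from each other than the lower of them did from the higher control. Its log2 fold change of 2.27 in stomach (SE 0.64, edgeR adjusted p = 0.0768) and of 2.73 in intestine (SE 0.80, edgeR adjusted p = 0.140) did not pass the threshold.

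Irx6, the last gene of the cluster and also known from retinal bipolar cells, had 0 counts in both control stomach libraries and 2 and 5 in Eed KO stomach. Control intestine held 2 and 0 counts and Eed KO intestine 5 and 13. Its stomach level was at least 2.38-fold higher in Eed KO against the pooled floor, and the exact 95% lower limit of the ratio was 1.47. In intestine the ratio of pooled counts was 8.20, with an exact 95% counting interval of 1.96 to 72.9.

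In all, 2 of the 4 tested Iroquois genes were called higher in Eed KO stomach, where 4.84% of all tested genes were called higher and 0.808% lower. In intestine 2 of 4 were called higher, where 2.38% of all tested genes were higher and 0.228% lower. The median log2 fold change of the 4 genes was 2.39 in stomach and 3.27 in intestine, against medians of 0.00084 and 0.0058 over all tested genes. None of the 4 had a negative log2 fold change in either organ. Because these genes passed the filter mainly through Eed KO libraries, the medians and directions are descriptions too. These calls rest on few libraries. Leaving out Eed KO stomach replicate 1, Eed KO stomach replicate 2 or control stomach replicate 2 ended the stomach call of Irx1. Leaving out Eed KO intestine replicate 2 or either control intestine library ended both intestinal calls. Fewer genes were called over all genes too in such fits. With 1 library left out, the log2 fold change of Irx1 was 1.88 to 3.54 in stomach and 3.91 to 4.84 in intestine. That of Irx2 was 3.74 to 5.46 and 3.33 to 4.16. Removing 1 spike-in factor left 1 call in stomach and 0 in intestine, as given with the other settings at the end. That factor came from spike-in counts not scaled to library size. These were 26227 to 37590 in the control and 4871 to 14932 in the Eed KO embryonic libraries. The factor thus ran with genotype and can take up part of the change on Eed loss, which cannot be told apart from a loss of calls.

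**Figure D2:**
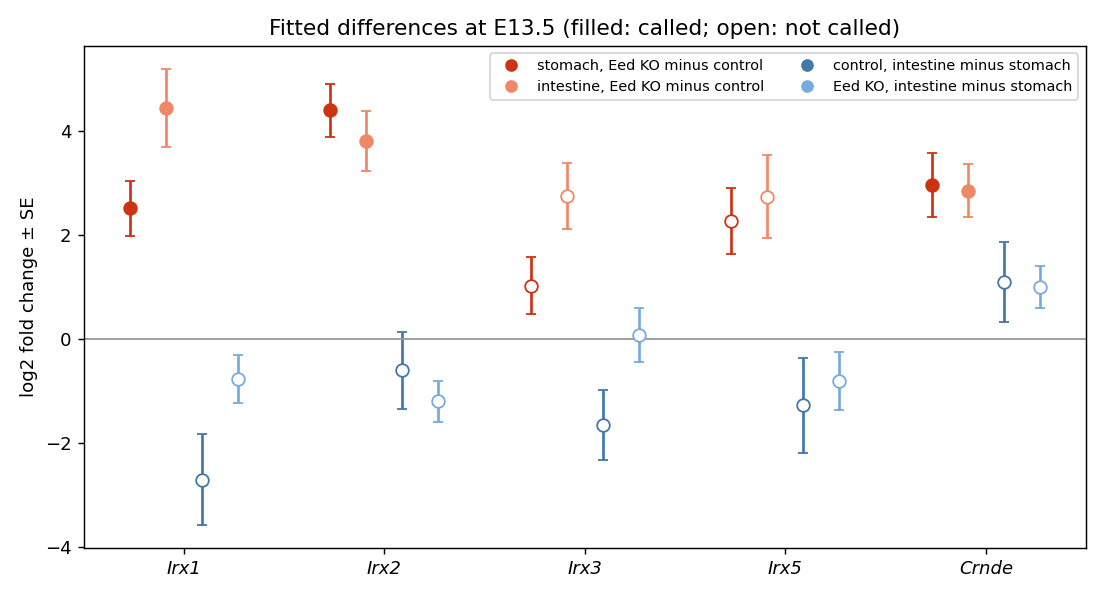
Fitted log2 fold changes with standard errors (vertical axis) at E13.5 for the 4 tested Iroquois genes and the adjoining non-coding gene Crnde, in 4 comparisons of 2 against 2 libraries. Filled points were called: Irx1, Irx2 and Crnde in both Eed KO comparisons, none between organs.

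Between the organs, the Iroquois genes were lower in intestine than in stomach in control cells by point estimate, but none of the 4 was called, where 5.07% of tested genes were called in either direction. Irx1 was 0.323 CPM in control stomach and 0.0449 CPM in control intestine, a log2 difference of -2.70 (SE 0.87, edgeR adjusted p = 0.136). Irx3 was 0.734 and 0.227 CPM, a log2 difference of -1.65 (SE 0.67, edgeR adjusted p = 0.253). The values for Irx2 and Irx5 were -0.60 (SE 0.75) and -1.27 (SE 0.91). Irx1 and Irx3 had an unadjusted p under 0.05, and DESeq2 called 0 of the 4. The control stomach libraries themselves differed, with replicate 1 higher for Irx1, Irx2 and Irx3 and lower for Irx5. Without replicate 2 of control stomach Irx3 was called lower in intestine, at -2.35 (edgeR adjusted p = 0.0286). Without replicate 1 the Irx3 difference was -0.29 (edgeR adjusted p = 0.992), that of Irx1 was -1.66 (edgeR adjusted p = 0.561), and that of Irx2 turned to 0.47.

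Among the 4 tested genes, the organ difference in Eed KO cells was largest for Irx2, at 3.52 CPM in stomach and 1.54 CPM in intestine, a log2 difference of -1.19 (SE 0.40, edgeR adjusted p = 0.141). Irx3 was level, at 1.48 and 1.56 CPM, with a log2 difference of 0.08 (SE 0.51). The untested Irx6 leaned the other way, with 18 pooled counts in intestine and 7 in stomach, a ratio of 2.54 with an exact 95% counting interval of 1.01 to 7.19. None of the 4 was called here either, where 4.40% of tested genes were. Irx2 had an unadjusted p under 0.05, and DESeq2 called 0. The change on Eed loss was not shown to differ between organs for any Iroquois gene. The interaction was 1.93 for Irx1 (SE 1.01, edgeR adjusted p = 0.976), 1.73 for Irx3 (SE 0.85, edgeR adjusted p = 0.947), -0.59 for Irx2 (SE 0.90) and 0.46 for Irx5 (SE 1.04). None passed the threshold of 0.2 used for this comparison, where 0.462% of all genes did, none had an unadjusted p under 0.05, and DESeq2 called 0.

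In length-corrected values the order of the family differed by condition. In control stomach Irx3 had the highest mean, 0.855 TPM (SD 0.749, n = 2), followed by Irx1 at 0.414 TPM (SD 0.309), and their libraries overlapped. In Eed KO stomach the order was Irx2 at 3.44 TPM (SD 0.54), Irx1 at 2.45 TPM (SD 0.06), Irx3 at 1.81 TPM (SD 0.18), Irx5 at 1.24 TPM (SD 0.62), Irx4 at 0.101 TPM (SD 0.052) and Irx6 at 0.0915 TPM (SD 0.0587). The libraries of Irx2, Irx1 and Irx3 did not overlap there, the lowest Irx3 and the highest Irx5 library were both at 1.68 TPM, and Irx4 and Irx6 overlapped. In Eed KO intestine Irx3 led with 1.81 TPM (SD 0.01), and Irx2 at 1.43 TPM (SD 0.61) and Irx1 at 1.38 TPM (SD 0.64) overlapped it. Below them came Irx5 at 0.679 TPM (SD 0.502), Irx6 at 0.229 TPM (SD 0.160) and Irx4 at 0.162 TPM (SD 0.060), each overlapping the next. In control intestine Irx3 was highest at 0.260 TPM (SD 0.036), apart from Irx2 at 0.0973 TPM (SD 0.0052) and Irx5 at 0.0943 TPM (SD 0.0129), which overlapped, and Irx1 at 0.0565 TPM (SD 0.0189).

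Across the 8 embryonic libraries, which span 4 groups, 2 Iroquois genes averaged at least 1 CPM, so the genes with the most similar profile were looked up for them. For Irx2 these were Lrrc34 (Pearson r of log2 CPM 0.995), Mcmdc2 (0.995) and Mxra8 (0.993). For Irx3 they were E4f1 (0.986), Gm14226 (0.985) and Slc25a30 (0.984). This r takes no account of the size of a change: E4f1 ranged only from 12.8 to 14.7 CPM, and Irx3 from 0.202 to 1.61 CPM. Among the members themselves, r was 0.946 between Irx3 and Irx1, of different clusters, and 0.945 between Irx2 and Irx1. It was 0.902 between Irx2 and Irx5, 0.869 between Irx2 and Irx3, and 0.732 between Irx3 and Irx5. These values are descriptions over libraries that share their group differences.

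The other genes around the clusters were mostly without calls. Within 500 kb on chromosome 13, 7 of 13 genes were tested and 0 were called in either Eed KO comparison. The gene nearest to a member there, Gm20554, singled out after its values were seen, lies 1807 bp from Irx2. It was at 0.394 CPM in mutant against 0.0272 CPM in control stomach (log2 fold change 3.70, SE 0.87, edgeR adjusted p = 0.0530). In intestine it was at 0.0845 CPM in mutant against 0 CPM in control. On chromosome 8, 5 of 21 were tested and 1 was called higher in both organs, Crnde, a long non-coding RNA transcribed away from Irx5 whose start lies 1676 bp from it and under the same promoter peak. Crnde had 2 and 1 counts in control stomach, 12 and 13 in Eed KO stomach, 4 and 2 in control intestine and 31 and 19 in Eed KO intestine. Its log2 fold change was 2.95 in stomach (SE 0.61, edgeR adjusted p = 0.0286) and 2.85 in intestine (SE 0.50, edgeR adjusted p = 0.0297). DESeq2 gave Crnde adjusted p-values of 0.0759 and 0.0537. Its edgeR log2 fold change with 1 library left out was 2.48 to 3.56 in stomach and 2.52 to 3.27 in intestine. Leaving out any library of the compared groups ended its call. By point estimate Crnde was higher in intestine than in stomach, at a log2 difference of 1.10 in control and 1.00 in Eed KO, and neither was called.

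Relatives and partners of the family were counted in the same fits. Of 12 other TALE homeobox genes, all tested, 0 were called in Eed KO stomach and 1 in Eed KO intestine, the tendon factor Mkx, which went from 6.86 to 17.0 CPM (log2 fold change 1.31, SE 0.17, edgeR adjusted p = 0.00979). The median log2 fold change of those relatives was -0.07 in stomach and -0.002 in intestine. Of 10 neural tube progenitor factors, which share the neural tube domains with Iroquois genes, 5 were tested, and 5 were called higher in Eed KO stomach and 3 in Eed KO intestine, among them Pax6 and Nkx6-1 in both. All of them but Nkx6-1 were at most 0.0255 CPM on average in each control group and passed the filter through Eed KO libraries, so that count is a description. In stomach the 10 genes summed to 3.34 to 3.71 CPM in the controls and to 29.8 to 32.7 CPM in the mutants, and in intestine to 0 to 0.0331 CPM and 1.97 to 4.21 CPM. Of 10 heart and limb factors known to act with Iroquois genes, 4 were called higher in stomach (Tbx5, Tbx3, Gata4, Hand1) and 2 in intestine (Tbx5, Gata4), and 0 were lower. Tbx5 averaged 0.151 CPM in control stomach and 0 CPM in control intestine, so it passed the filter through Eed KO libraries. Beside all these lists, 4.84% of all tested genes were called higher in stomach and 2.38% in intestine.

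In adult intestinal GFP+ cells the family was at or near 0 and none of its members had enough reads to be tested, where 19.6% of 15039 tested genes were called. Irx2 and Irx3 had no count in any of the 4 libraries. Irx1 had 0 and 3 counts in the controls and none in the mutants. Irx4 had 1 count in 1 Eed KO library. Irx5 had none in the controls and 3 and 1 in the mutants, and Irx6 had 0 and 4 against 2 and 1. The largest of these values is 4 counts, and the groups overlapped for Irx1, Irx4 and Irx6. A rise of Irx2 or Irx3 to the embryonic Eed KO level of 1 CPM or more would have been above the limit of 0.189 CPM in Eed KO replicate 2 and 0.263 CPM in Eed KO replicate 1. Summed TPM were 0 and 0.434 in adult control and 0.409 and 0.0907 in adult Eed KO, beside 0.609 and 0.457 in embryonic control intestine. The 2 ages used different drivers and kits, so age, driver and kit cannot be told apart.

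The adult Eed KO libraries stood apart in 2 ways that touch this reading. Eed had 406 and 477 counts in the control libraries against 256 and 324 in the mutant ones, a log2 fold change of -0.32 that was not called (edgeR adjusted p = 0.317). That value depended on the scaling: without composition factors Eed was 37.3 CPM (SD 2.4) in control and 21.4 CPM (SD 1.4) in the mutants, and under spike-in scaling the log2 fold change was -0.76 (edgeR adjusted p = 0.355). By contrast, the embryonic log2 fold changes were -2.11 in stomach and -2.02 in intestine. Leukocyte markers summed to 3200 to 4078 CPM in adult control and 78295 to 82092 CPM in adult Eed KO, with 6 of 8 called higher and 1, Cd79a, lower. Mesenchyme markers summed to 23779 to 25780 CPM and 9296 to 10290 CPM, with 3 of 7 tested called lower. The part of this in the absence of Iroquois reads was not tested.

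Open chromatin was present at all 6 Iroquois starts in every list. A peak covered the annotated start of each gene in control intestine, control stomach, Eed KO intestine and Eed KO stomach, where 39.2%, 39.7%, 40.8% and 41.1% of 39047 autosomal genes had such a peak. It was there for Irx4 and Irx6 in controls, which had 0 to 2 counts. Each list came from pooled replicates, so peaks carry no replicate error and are compared without a test. All 6 promoter peaks were lower than the median strongest promoter peak, whose fold enrichment was 6.41, 6.21, 5.84 and 6.05 in those lists. Irx2 had 5.80 in control intestine, 4.75 in control stomach, 3.90 in Eed KO intestine and 3.93 in Eed KO stomach. Irx5 had 5.33, 5.82, 5.16 and 4.76 in the same order. Irx1, Irx3, Irx4 and Irx6 stayed between 2.44 and 3.85. The weakest was Irx4, whose -log10 q was 2.42 to 4.38, so that a minimum of 5 left 5 of 6 genes with a promoter peak in each list. In both organs all 6 genes had a lower promoter fold enrichment in Eed KO than in control, while 42.1% of 17481 genes with a promoter peak in every list did so. For Irx6 the differences were small, from 3.78 to 3.66 in intestine and from 3.85 to 3.79 in stomach. Of these 6 peaks 4 were also wider in Eed KO in both organs, as given below.

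**Figure D3:**
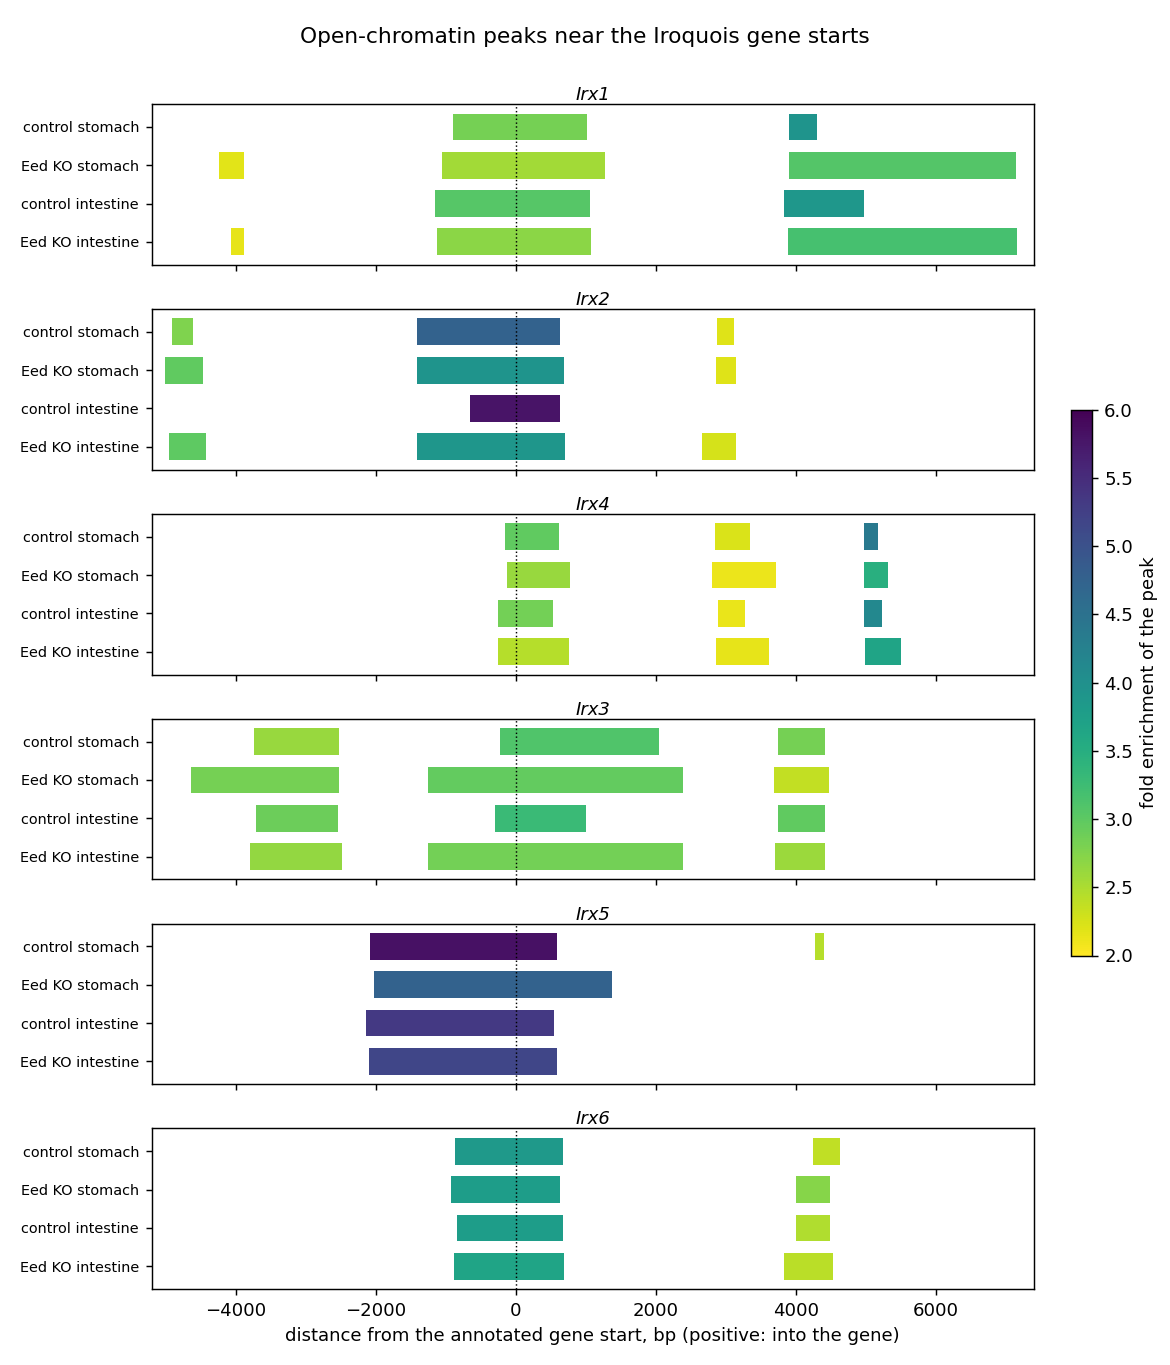
Peaks within 5000 bp of each Iroquois gene start (horizontal axis, distance in bp, positive into the gene) in the 4 pooled peak lists, coloured by fold enrichment. A peak spans the dotted start line in every row, and the 3′ peak of Irx1 and the start peak of Irx3 extend further in Eed KO.

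The reach of some peaks differed between genotypes as well. The start peak of Irx3 was 1298 bp wide in control intestine and 3652 bp in Eed KO intestine, and 2270 and 3654 bp in control and Eed KO stomach. At Irx1 the start peak kept its width, 1915 to 2341 bp, while a second peak over the 3′ end of the gene went from 1146 to 3271 bp in intestine and from 393 to 3253 bp in stomach. At Irx2 the start peak was 1282 bp wide in control intestine and 2044 to 2126 bp in the other 3 lists. The start peak was wider in Eed KO in both organs for 4 of 6 genes (Irx2, Irx3, Irx4 and Irx6), against 47.3% of genes, which is near that background.

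The share of the gene itself lying under peaks was higher in Eed KO than in control in both organs for all 6 genes, which was so for 38.0% of 3506 genes of 3 to 10 kb with a promoter peak in every list. Irx1 went from 38.1% to 51.5% in intestine and from 24.3% to 54.9% in stomach. Irx3 went from 29.6% to 70.6% in intestine and from 60.3% to 70.6% in stomach. Irx4 went from 16.6% to 27.5% and from 16.8% to 27.4%. Irx2 went from 11.7% to 22.3% in intestine and from 16.3% to 18.2% in stomach. The changes of Irx6 were small, from 17.3% to 21.0% and from 15.9% to 16.9%, and Irx5 changed mainly in stomach, from 16.3% to 37.7%, against 15.1% to 16.1% in intestine. The widest gaps were those of Irx3 in intestine and of Irx1 in stomach, and Irx1 RNA was called in stomach. Gap and RNA did not go together for each gene. Irx2, called in stomach at a log2 fold change of 4.39, had a narrow gap there. Irx5 had a wide gap in stomach, and its RNA was not called. A relation between gap and RNA was not tested. Irx3 RNA in intestine rose from 9 and 6 to 61 and 53 counts, a log2 fold change of 2.75. It was called by DESeq2 but not by edgeR.

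**Figure D4:**
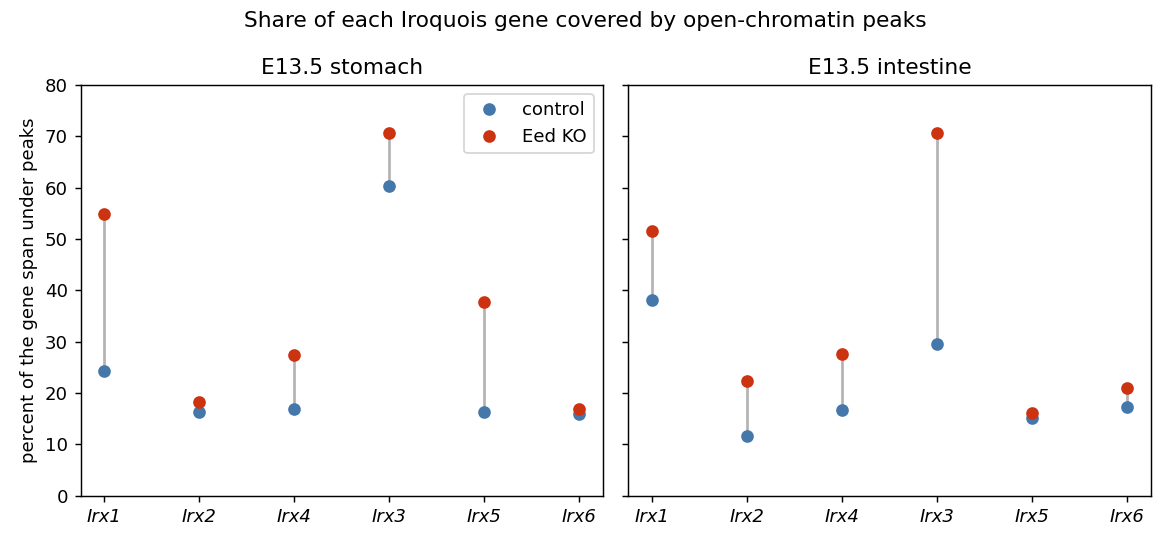
Percent of each Iroquois gene's span that lies under open-chromatin peaks (vertical axis) in control (blue) and Eed KO (red) lists of E13.5 stomach and intestine; grey lines join the genotypes. The red point is above the blue one for all 6 genes in both organs, with the narrowest gaps at Irx6 in stomach and Irx5 in intestine.

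Over the whole cluster regions, with the genes and their peaks included, the Eed KO lists held more peaks. From the 3′ end of Irx1 to that of Irx4 (chr13:71957921-73269608) there were 39 peaks in control and 66 in Eed KO intestine, a ratio of 1.69, and 48 and 61 in stomach, a ratio of 1.27. Across the genome the ratios were 1.15 and 1.01. From Irx3 to Irx6 (chr8:91798525-92680956) there were 44 and 51 peaks in intestine and 45 and 52 in stomach, ratios of 1.16 in both organs. In intestine that is near the ratio across the genome. Of the Eed KO peaks of the Irx1 cluster, 47.0% in intestine and 31.1% in stomach overlapped no control peak of the same organ, and of those of the Irx3 cluster 31.4% and 32.7%. The share over all Eed KO peaks was 25.5% in intestine and 21.0% in stomach. The covered length in the Irx1 cluster was 1.62 times the control length in intestine and 1.32 times in stomach. It was 1.35 and 1.32 times in the Irx3 cluster, and 1.17 and 1.09 times over all peaks. In the Irx1 cluster the mean fold enrichment was 3.88 and 3.35 in control and Eed KO intestine and 3.95 and 3.78 in stomach.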

How the data were processed

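The authors trimmed reads with Trimmomatic 0.32, aligned RNA with STAR 2.5.1b to GRCm38/mm10 and spike-ins, and deposited raw counts per gene from featureCounts with GENCODE vM4 (adult tables name version 1.5.0, counted without strand). They deposited MACS2 2.1.2 broad peaks of pooled ATAC replicates, as fold enrichment (a ratio) and -log10 q, on autosomes. From these, edgeR 4.0.16 was fitted with TMM factors, filterByExpr (minimum count 10) and group means over 8 embryonic or 4 adult libraries, with adjustment over all genes. Standard errors are the log2 fold change over the root of F. DESeq2 1.42.0 was an alternative. TPM used the gene lengths of the adult tables, with spike-ins left out. The study describes embryonic replicates as biological, and p-values measure the spread between the 2 samples of a group, or of the other groups where 1 was left out. Exact permutation of 2 against 2 cannot go below p = 0.333. Whether same-numbered libraries share embryos is not given in the sources used here. Counting intervals and limits for 0 (3 counts) cover counting error only. Scripts were tested on simulated data. The members, gene lists and tests were chosen with earlier results of these data known. Named genes were the members, Eed, called neighbours and list genes, and the 3 nearest profiles of members with at least 1 CPM.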

Additional observations from a re-analysis of the deposited data

How the results depend on the processing

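Counts limit every Iroquois result: no member exceeded 140 counts in a library, Irx4 and Irx6 were untested, and peaks had no replicates. In Eed KO stomach 2 Iroquois genes were called, 4 under spike-in scaling, 1 with 1 spike-in factor removed (Irx1 1.80, edgeR adjusted p = 0.231), and 1 to 3 with 1 library left out. In Eed KO intestine 2 were called, 4 under spike-in scaling, without a filter and with the replicate block, 0 with 1 spike-in factor removed (Irx1 and Irx2 edgeR adjusted p = 0.067 and 0.0515), and 0 to 2 with 1 library left out. DESeq2 called 2 in stomach and 3 in intestine, Irx3 being the third (2.77, adjusted p = 0.00333). Between control organs 0 were called, but 1 (Irx1) without a filter and with the replicate block (-2.77, edgeR adjusted p = 0.0447), and 0 to 1 with 1 library left out. Between Eed KO organs 0 were called, and 1 (Irx2) with the block (-1.23, edgeR adjusted p = 0.0179). Same-numbered libraries of the 2 organs deviated together, with correlations of 0.265 in control and 0.628 in Eed KO, and the block, numbers shared by 2 pairs only, changed no call in the adult or the interaction. The 1 spike-in factor removed ran with genotype, as given above. Spike-in scaling raised the median of all genes by 2.39 in stomach and 1.85 in intestine on the log2 scale. Relative to that shift Irx2 changed by 4.45 and 3.92. Over these settings up to 15419 genes were called higher in stomach and up to 13664 in intestine. The main fit tested 16218, so the 4 calls under spike-in scaling are shared with most genes. Spike-in scaling reversed Irx3 between Eed KO organs (-0.13), Eed in stomach (0.14) and the interaction of Irx5 (-0.015), but it shifts all genes together. Relative to the shift of the median gene these were 0.11, -2.24 and 0.51, with the direction unchanged. With 1 library left out, values that changed sign ranged from -1.25 to 0.47 for Irx2 between control organs, from -0.042 to 0.22 for Irx3 between Eed KO organs, and in the interaction from -1.66 to 0.065 for Irx2 and from -0.53 to 1.06 for Irx5. The cause was not tested. A start-covering peak or a window of 5000 bp left 6 of 6 promoter calls in each list.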
